A study of Homo sapiens with 6 samples.

Results

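The genes described here carry amino acids across membranes or attach them to tRNA. They were taken from the gene annotation of the first deposited table: 59 transporters, which held the exact process term for amino acid transport or were SLC7A11 and SLC3A2, added by name; 33 genes with the exact term for tRNA aminoacylation in protein translation; and 4 enzymes added by name, ASNS, PSAT1, PHGDH and SHMT2. Of these 96 genes, 77 reached a mean count of at least 10 over the 6 libraries, among 13565 genes of the series that did so. They were 41 transporters, 32 synthetase-term genes and the 4 enzymes. The synthetase-term genes comprised 15 cytosolic and 16 mitochondrial synthetases and DALRD3, which has an anticodon-binding domain like that of arginyl-tRNA synthetase.

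The libraries were made from HEK293A, a derivative of the embryonic kidney line HEK293, in a study of UBE2A and UBE2B in mechanotransduction and contact inhibition. UBE2A and UBE2B are paralogous ubiquitin-conjugating enzymes, the human counterparts of yeast Rad6. Knockdown cells (n = 3 libraries) received siRNA to UBE2A and to UBE2B at 25 uM each, 50 uM in total, and control cells (n = 3) received vehicle, both for 48 h. The control held no siRNA, so an effect of siRNA in general cannot be told apart from the loss of the targets. All cells were of 1 line, and separate cultures are not named, so the p-values reflect variation from library to library alone, possibly of technical origin. Replicates 1 and 2 of each group came in a first table and 1 further library of each group, without a number, in a second. The second table's columns are headed control and siRAD6; the latter was read as the knockdown from the common name RAD6 of the targets.

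Library depth ran from 10887217 to 14564624 counted reads, and 3 reads, taken as the detection floor for counting error only, were worth 0.207 to 0.272 CPM (counts scaled to the library total with TMM factors). Libraries divided first by table, along a principal component with 60.7% of the variance, and table entered the model as a term. UBE2A had 52.9 ± 4.38 CPM after knockdown against 101 ± 3.59 (SD, n = 3; edgeR adjusted p = 1.51e-12). UBE2B had 51.0 ± 4.60 against 62.8 ± 1.43 CPM (adjusted p = 0.0126), so part of both transcripts was left. Of the markers of HEK293, KRT8, KRT18, VIM, NEFL, NEFM, PAX2 and LHX1 all reached the count minimum, with a summed level of 1709 to 1852 CPM in controls and 1351 to 1706 after knockdown. The summed level was at most 0.461 CPM for 4 immune markers, 3 of them at 0 in all libraries, and at most 0.276 CPM for 3 hepatocyte markers. It was 80.7 to 104 CPM in controls and 85.4 to 99.2 after knockdown for 4 fibroblast markers, and 3.10 to 6.12 against 3.68 to 5.99 for 3 endothelial markers. These marker levels were scaled to the library total without TMM factors. Their part in the results below was not tested.

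Amino acids enter cells through solute carriers of several families. Many light chains of the SLC7 family reach the cell surface only when bound to the heavy chain SLC3A2, also named 4F2hc or CD98: SLC7A5 (LAT1) with it exchanges large neutral amino acids, and SLC7A11 (xCT) with it imports cystine in exchange for glutamate. Once inside, each amino acid is joined to its tRNA by an aminoacyl-tRNA synthetase, with separate genes for the cytosol and the mitochondrion in most cases. Many of these genes, ASNS and PSAT1 among them, are textbook targets of the transcription factor ATF4, which binds elements near their starts when amino acids are scarce.

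After knockdown 8 members passed the test, and each of them fell: 5 transporters (SLC7A11, SLC7A5, SLC6A15, SLC1A5 and SLC38A1) and 3 cytosolic synthetases (VARS1, NARS1 and TARS1). The other 69 members did not pass and 0 rose. With edgeR's quasi-likelihood test, the table as a term and Benjamini-Hochberg adjustment over all genes (threshold 0.05), the 8 called members made 10.4% of the 77, against 2.47% of all 13565 genes called in either direction, 1.84% called lower and 0.627% called higher. The log2 fold change was below 0 for 56 of the 77 members (72.7%), against 49.4% of all genes. The median over members was -0.09, against 0.00 over all genes. At an unadjusted p under 0.05 there were 23 members, all lower, where 14.1% of all genes were at that level, 8.04% lower and 6.05% higher.

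These calls rest on the table term. In a model without it edgeR called 0 of 13565 genes (0%), and 324 (2.39%) had an unadjusted p under 0.05. DESeq2 with the table term called 6 of the members, all lower, against 1.50% of all genes (1.32% lower and 0.184% higher), and gave no adjusted p for 18 members and 4997 of all genes. In the first table alone edgeR called 3 members, SLC7A11, SLC7A5 and SLC6A15, all lower, against 1.24% of all genes (1.05% lower and 0.192% higher). A lower CPM in bulk RNA cannot tell fewer cells with a transcript from less of it per cell.

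**Figure D1:**
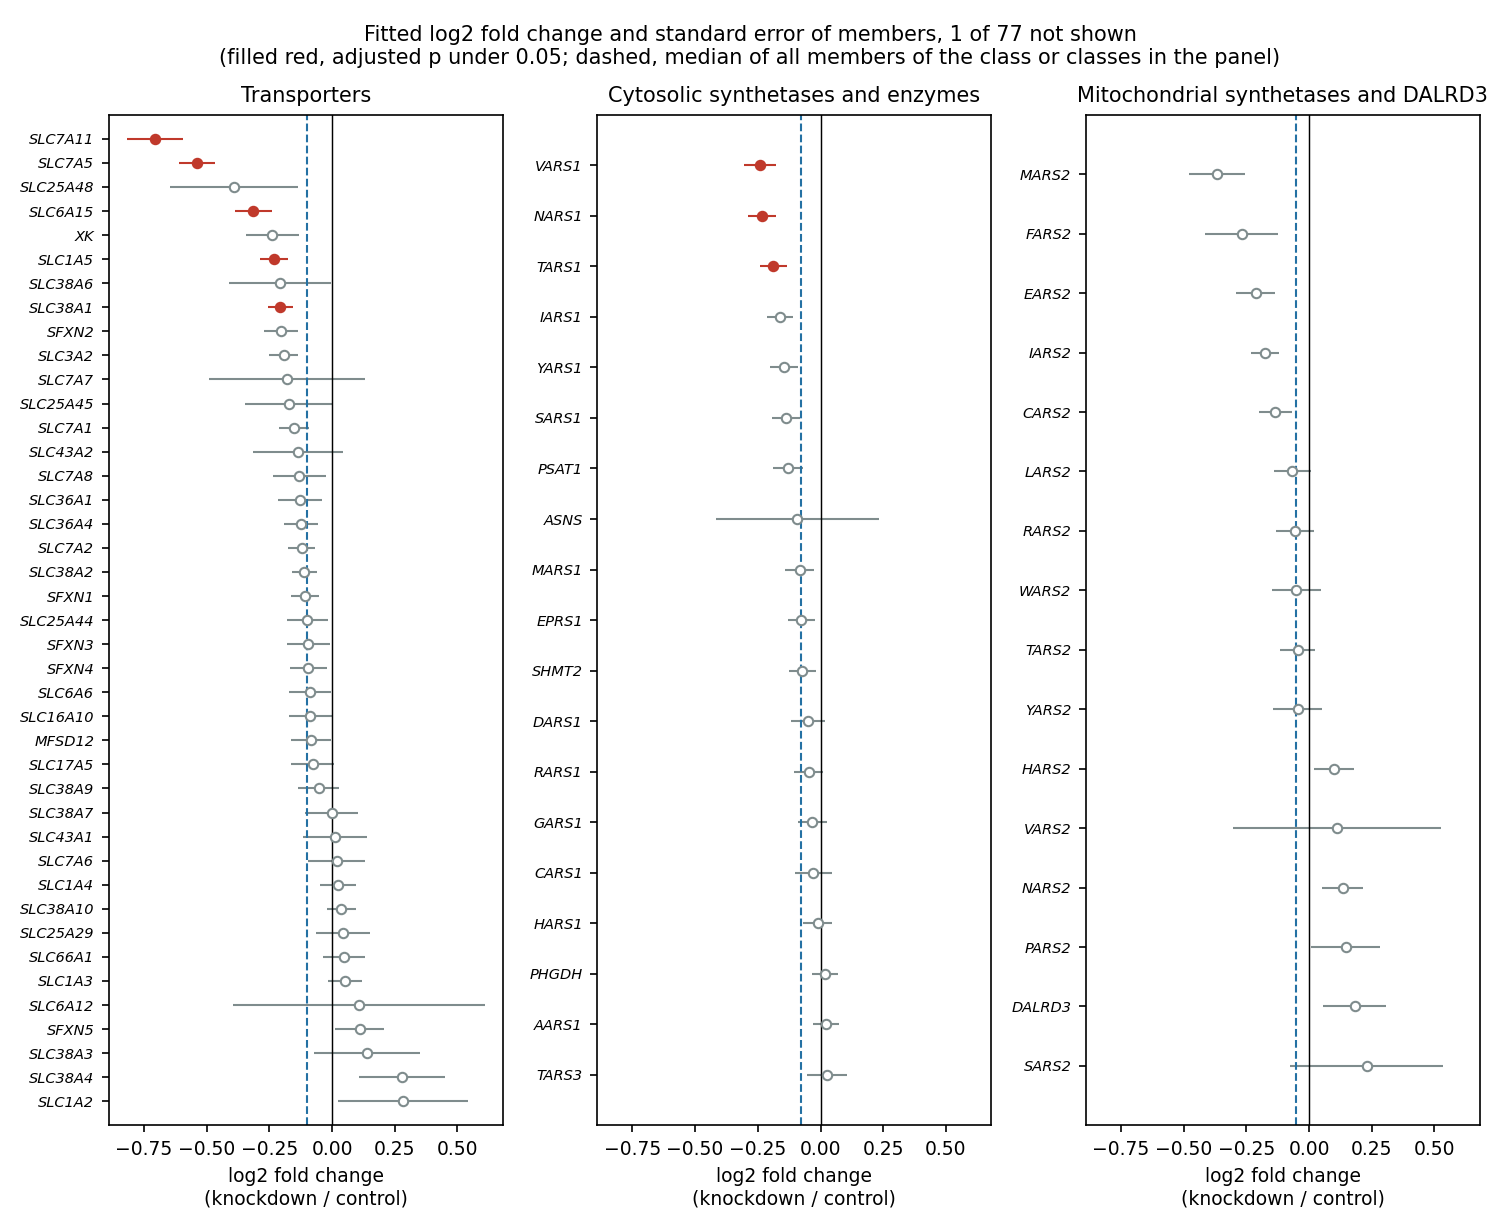
Fitted log2 fold change, knockdown over control, with its standard error for the members in 3 panels, with 1 of the 77 not shown. Filled red points are the 8 members past adjusted p 0.05, all to the left of 0, and the dashed line is the median over all members of the panel's classes.

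The cystine carrier gene SLC7A11 had the largest fall among members. SLC7A11 (ENSG00000151012, chromosome 4, 138164097 to 138242349 on hg38, minus strand) stood at 38.3 and 36.2 CPM in control replicates 1 and 2 and at 11.6 CPM in the second table's control. The knockdown libraries held 19.8, 26.6 and 6.62 CPM in the same order. Within each table the knockdown libraries lay below the controls, but the groups overlapped over all 6 libraries, because the second table's control was below both knockdown libraries of the first. The log2 fold change was -0.71 (standard error 0.11, edgeR adjusted p = 6.04e-05), a fall of 38.7%. Within the tables it was -0.69 (first) and -0.79 (second). The call was made with each library left out in turn, with log2 values from -0.89 to -0.56.

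The large neutral amino acid carrier gene SLC7A5 came next. SLC7A5 (ENSG00000103257, chromosome 16, 87830023 to 87869507, minus strand) had 253.5, 257 and 134 CPM in the controls and 138, 185 and 112 CPM after knockdown, first table first. Both knockdown libraries of the first table were lower than both controls, and the second table's control was lower than all 4. On the log2 scale the change was -0.54 (standard error 0.07, edgeR adjusted p = 4.59e-06), a fall of 31.2%. It was larger in the first table, -0.67, than in the second, -0.26, a difference that was not tested. The call was also made with each library left out, but DESeq2 with the same terms gave an adjusted p of 0.101.

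Their shared heavy chain gene showed a smaller difference that did not pass. SLC3A2 (ENSG00000168003, chromosome 11, 62856004 to 62888880, plus strand) had 394, 391 and 195 CPM in the controls and 304, 364 and 182 CPM after knockdown. Its difference on the log2 scale was -0.19 (standard error 0.06, edgeR adjusted p = 0.0627). Without knockdown replicate 2 the value was -0.27 and passed (adjusted p = 0.0165), and without knockdown replicate 1 it was -0.10 (0.585). The gene model of SLC3A2 differed between the tables, 6392 against 5154 bases, so its level is not comparable across them.

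The other members of the SLC7 family did not pass. SLC7A1 and SLC7A2, carriers of cationic amino acids, had log2 fold changes of -0.15 and -0.12. SLC7A6, SLC7A7 and SLC7A8, light chains like SLC7A5, had 0.02, -0.18 and -0.13. Counting SLC3A2, 2 of the 8 genes of these families fell, and 7 had a log2 fold change below 0. Over all genes 1.84% were called lower and 49.4% were below 0. Reads of SLC7A6 are uncertain, since 55.6% of its annotated exon bases (GENCODE 29) lie under exons of genes on the other strand, and the strand setting of the counting is not given in the sources used here.

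**Figure D2:**
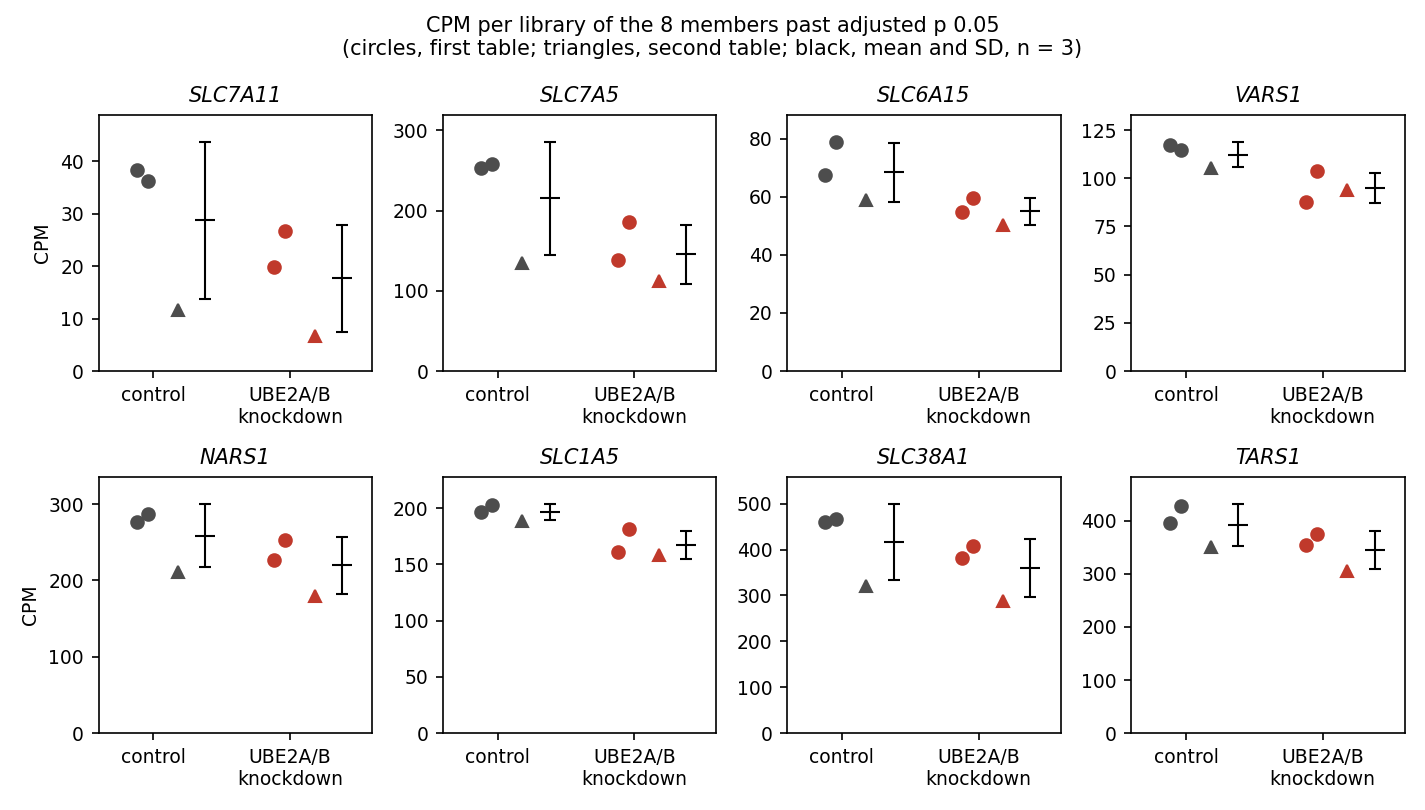
CPM of the 8 called members in each library (circles, first table; triangles, second table), with the mean and SD of each group (n = 3) in black and the vertical axis from 0. In relative terms SLC7A11 and SLC7A5 show the widest gap between the controls of the tables, and SLC1A5 and VARS1 are the ones whose groups do not overlap.

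Sodium-coupled carriers supplied the other 3 transporters that fell. SLC6A15 (ENSG00000072041, chromosome 12, 84859491 to 84913629, minus strand), a carrier of branched-chain amino acids and proline, had 67.6, 78.8 and 58.8 CPM in the controls and 54.7, 59.7 and 50.4 CPM after knockdown. Its log2 fold change was -0.31 (standard error 0.07, edgeR adjusted p = 0.00998), and it did not pass without control replicate 2 (0.233) or knockdown replicate 1 (0.201). Its gene model differed between the tables, as did that of IARS1. SLC1A5 (ENSG00000105281, chromosome 19, 46774883 to 46788594, minus strand), or ASCT2, exchanges glutamine and other neutral amino acids. It had 197, 203 and 189 CPM in the controls and 161, 181 and 159 CPM after knockdown, with no overlap between the groups. The log2 change was -0.23 (standard error 0.06, edgeR adjusted p = 0.0134). The adjusted p was 0.113 with control replicate 2 left out, 0.229 with knockdown replicate 1 left out, and 0.0869 and 0.125 with the unnumbered control and knockdown libraries left out.

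SLC38A1 (ENSG00000111371, chromosome 12, 46183063 to 46270017, minus strand), or SNAT1, brings in glutamine and alanine with sodium. It had 460, 466 and 320 CPM in the controls and 382, 408 and 288 CPM after knockdown. Knockdown libraries were lower within each table, and the groups overlapped across tables. The log2 change of SLC38A1 was -0.21 (standard error 0.05, edgeR adjusted p = 0.0185), and its adjusted p was 0.153 with control replicate 2 left out, 0.253 with knockdown replicate 1 left out and 0.0741 with the unnumbered knockdown library left out. SLC38A2, or SNAT2, the member with the highest CPM, did not pass: it had 513, 520 and 430 CPM in controls and 473, 466 and 415 CPM after knockdown (log2 fold change -0.11, adjusted p = 0.307). Of the 8 SLC38 genes 1 fell, and of the 4 SLC1 genes 1 fell, where 1.84% of all genes were called lower. The glutamate carriers SLC1A2 and SLC1A3 had 0.28 and 0.05.

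The remaining carriers held no call. Of 9 sideroflexins and mitochondrial SLC25 carriers, 7 were below 0, with -0.11 for SFXN1, a mitochondrial serine carrier, and -0.20 for SFXN2 (adjusted p = 0.117). SLC25A48 had the largest difference of this group, -0.39, at 4.19 ± 1.19 CPM in controls and 3.19 ± 0.75 after knockdown (SD, n = 3; adjusted p = 0.517). Of 5 SLC43, SLC16 and SLC36 genes, 4 were below 0, none beyond -0.14. Of all genes 49.4% were below 0. The 3 carriers of lysosomes and melanosomes, MFSD12, SLC17A5 and SLC66A1 (PQLC2), lay between -0.09 and 0.05. XK, which carries the transport term and is better known as a membrane partner of the Kell blood group protein, had -0.24 (adjusted p = 0.286).

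Among cytosolic synthetases, VARS1 (valyl, ENSG00000204394, chromosome 6, 31777518 to 31795752, minus strand) had 117, 115 and 105 CPM in the controls and 87.8, 104 and 93.8 CPM after knockdown. Its groups did not overlap. The log2 change of VARS1 was -0.24 (standard error 0.06, edgeR adjusted p = 0.0237), and DESeq2 gave 0.0763. Its adjusted p was 0.0678 and 0.129 with control replicate 1 and 2 left out, and 0.0644 with the unnumbered knockdown library left out. With knockdown replicate 1 left out it was 0.399, at a log2 value of -0.16. NARS1 (asparaginyl, ENSG00000134440, chromosome 18, 57600656 to 57622213, minus strand) had 277, 287 and 211 CPM in the controls and 226, 253 and 180 CPM after knockdown. Its log2 fold change was -0.23 (standard error 0.05, edgeR adjusted p = 0.00983), with -0.24 and -0.23 within the tables. The call was lost with control replicate 2 (0.110), knockdown replicate 1 (0.207), the unnumbered control (0.0566) or the unnumbered knockdown library (0.0914) left out.

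TARS1 (threonyl, ENSG00000113407, chromosome 5, 33440696 to 33468091, plus strand) had 396, 428 and 351 CPM in the controls and 354, 374 and 305 CPM after knockdown. Its log2 fold change was -0.19 (standard error 0.05, edgeR adjusted p = 0.0385), the smallest among the 8 called members. The same libraries decided this call: the adjusted p was 0.331, 0.287, 0.173 and 0.231 with each of these 4 left out, in that order. IARS1 (isoleucyl), the cytosolic synthetase with the most reads, had 454, 462 and 347 CPM in the controls and 408, 425 and 299 CPM after knockdown (log2 fold change -0.16, edgeR adjusted p = 0.0886). Of all genes 1.84% were called lower and 49.4% were below 0. Of the 15 cytosolic synthetases, 3 fell and 13 were below 0. The exceptions were AARS1 (alanyl) and TARS3, a second threonyl enzyme, at 0.02 and 0.03.

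A further 6 cytosolic synthetases were not among the members and were read from a list of these enzymes. Part of the process annotation was emptied for this work, so these genes need not lack the term. Of FARSA, FARSB, KARS1, LARS1, QARS1 and WARS1, 0 passed by edgeR or DESeq2, against 2.47% of all genes by edgeR. An unadjusted p under 0.05 was found for 2 of these 6 genes, against 14.1% of all genes. FARSB, a subunit of the phenylalanyl enzyme, had -0.21 (edgeR adjusted p = 0.111) and QARS1 (glutaminyl) 0.07. Over all 21 cytosolic synthetases 3 fell and the median log2 fold change was -0.08. The scaffold genes of the multi-synthetase complex did not pass by edgeR either, with 0.05 for AIMP1, -0.11 for AIMP2 and 0.04 for EEF1E1; DESeq2 gave no adjusted p for EEF1E1 and did not call the other two.

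Of the 16 mitochondrial synthetases 0 passed by edgeR, against 2.47% of all genes. At an unadjusted p under 0.05 there were 5, all lower, against 14.1% of all genes (8.04% lower and 6.05% higher). DESeq2 also called 0 of the 16 and gave no adjusted p for 5, MARS2 and FARS2 among them. MARS2 (methionyl) had 23.5, 20.9 and 18.8 CPM in the controls and 15.5, 18.1 and 15.5 CPM after knockdown, without overlap (log2 fold change -0.37, standard error 0.11, adjusted p = 0.0725). FARS2 (phenylalanyl) was also without overlap, at 11.2 ± 0.87 in controls against 9.32 ± 0.94 CPM (SD, n = 3; log2 value -0.27, edgeR adjusted p = 0.411). PARS2 (prolyl) was the 1 member whose knockdown libraries all lay above the controls, at 11.9, 11.9 and 12.2 against 10.3, 11.5 and 10.8 CPM (log2 fold change 0.15, adjusted p = 0.697). In all, 5 of 77 members had groups without overlap, 4 lower and 1 higher, where 7.67% of all genes did (3.74% lower and 3.93% higher). EARS2 (glutamyl) had -0.21 and IARS2 (isoleucyl) -0.17, with adjusted p of 0.173 and 0.0996.

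Transporters and synthetases were set side by side without a test, since genes are not replicates. The median log2 fold change was -0.10 over 41 transporters and -0.05 over 32 synthetase-term genes, a difference of -0.05, with 0.00 over all genes. Of the transporters 12.2% were called and of the synthetase-term genes 9.38%. The transporters covered a wider range, from -0.71 to 0.28, than the synthetase-term genes, from -0.37 to 0.23. The order of the medians was not the same in both tables: in the first they were -0.11 and -0.07, and in the second -0.05 and -0.14. The difference of the medians was near 0 without knockdown replicate 1 (-0.0020) and -0.01 without knockdown replicate 2. Without knockdown replicate 2 the synthetase-term median itself was -0.09.

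The summed level of transporters was 3626, 3668 and 2798 CPM in the controls and 3089, 3311 and 2658 CPM after knockdown. For synthetase-term genes the sums were 3693, 3812 and 3239 CPM against 3378, 3592 and 2979 CPM. Each knockdown sum was below the controls of its own table, and for neither class did the 3 libraries of each group separate. The second table's libraries held less of both classes than the first table's libraries of the same group.

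**Figure D3:**
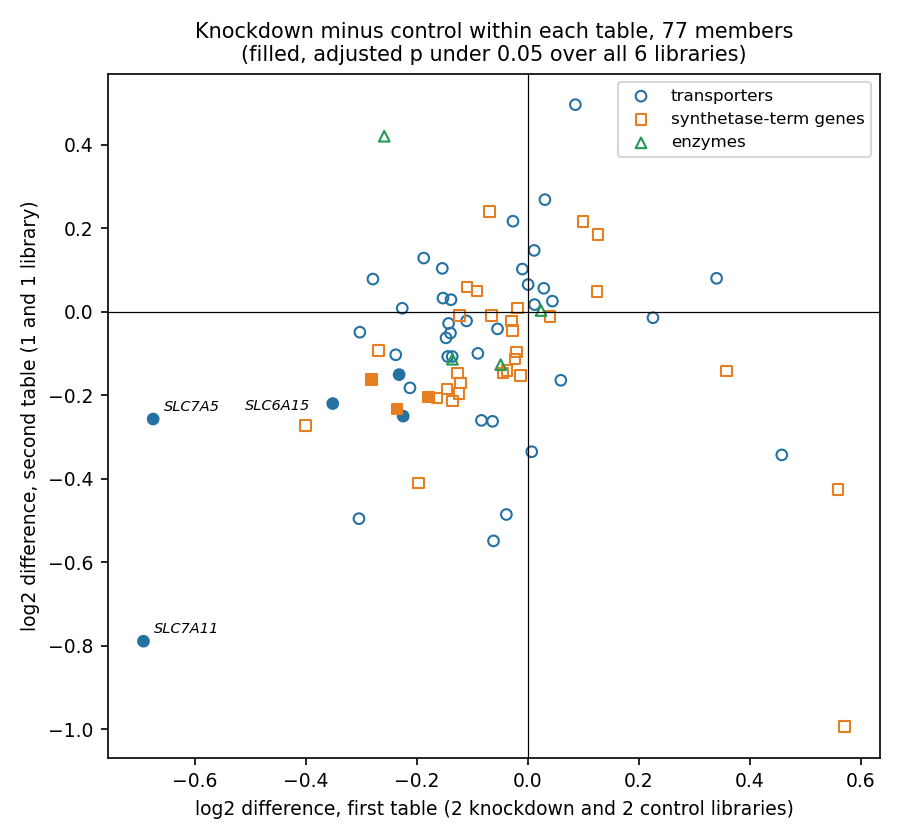
Difference between knockdown and control on the log2 CPM scale in the first table (horizontal; 2 against 2 libraries) and in the second (vertical; 1 against 1) for the 77 members. All 8 called members, shown filled, lie below 0 on both axes. They were called on these same libraries, so their place here is no separate support. SLC7A5 lies at -0.67 and -0.26, and SLC7A11 at -0.69 and -0.79.

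In both tables, 44 of the 77 members had a difference below 0, as had 29.4% of all genes. A stricter order had each knockdown library below each control library of its own table. It held for 26 members (33.8%), against 14.0% of all genes. All 8 called members were among the 26, but they were called on these same libraries, so this is no separate support. The stricter order held for 12 of 41 transporters, 7 of 15 cytosolic and 6 of 16 mitochondrial synthetases. In each of the 8 called members knockdown replicate 1 was lower than replicate 2. The unnumbered control was in each case lower than both numbered controls. Both orders were common among members not called as well, and their share over all genes was not counted. For SLC6A15 the gene model also differed between the tables, 20154 against 8727 bases. The table difference between controls was -1.65 on the log2 scale for SLC7A11, -1.01 for SLC3A2, -0.93 for SLC7A5 and -0.53 for SLC38A1, each larger than the knockdown difference of that gene; for SLC3A2 it includes the change of gene model.

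**Figure D4:**
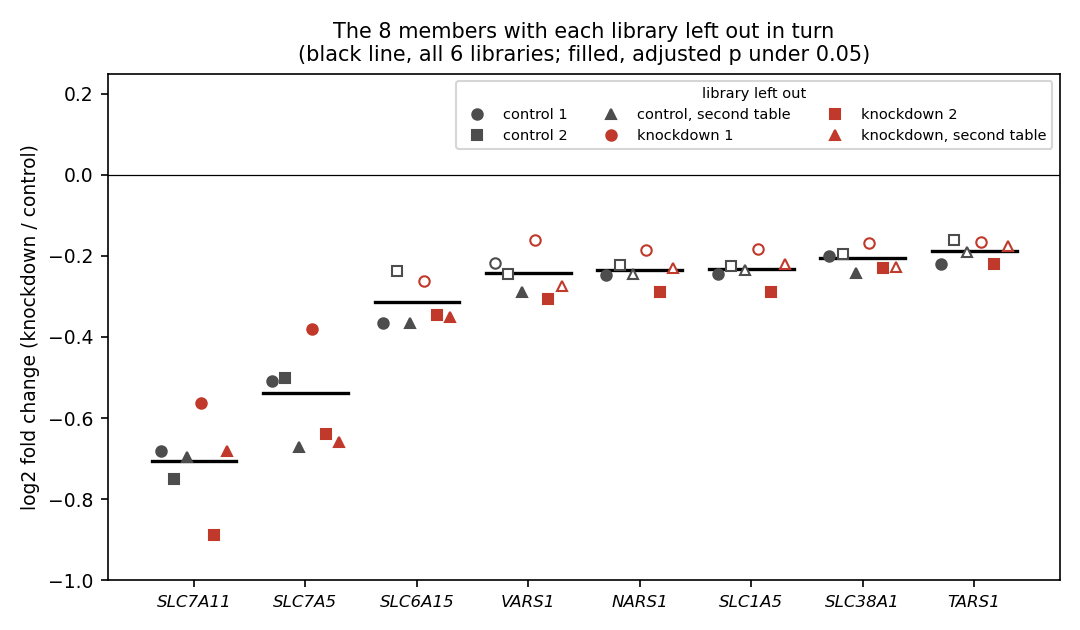
Log2 fold change of the 8 called members with each library left out in turn (grey, control left out; red, knockdown left out; filled, adjusted p under 0.05) and with all 6 libraries (black line). All points are below 0; SLC7A11 and SLC7A5 stay filled throughout, and the other 6 lose the call without control replicate 2 and without knockdown replicate 1.

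The 4 enzymes did not pass by edgeR, nor did 3 of them by DESeq2, which gave no adjusted p for ASNS, and PSAT1 alone had an unadjusted p under 0.05. PHGDH, which opens serine synthesis, had 252 ± 20.1 CPM in controls and 255 ± 16.9 after knockdown as mean ± SD over 3 libraries (log2 fold change 0.02, edgeR adjusted p = 0.928). With 1 library left out its value ran from -0.0066 to 0.04. PSAT1, the next enzyme of that route, had 103, 116 and 94.2 CPM in the controls and 102, 96.4 and 87.0 CPM after knockdown (-0.13, adjusted p = 0.327). SHMT2, the mitochondrial serine hydroxymethyltransferase, had 221 ± 0.76 against 210 ± 11.1 CPM (-0.07, adjusted p = 0.587).

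ASNS, asparagine synthetase, had few reads (mean count 29), at 3.10, 1.43 and 2.40 CPM in the controls and 1.51, 2.01 and 3.26 CPM after knockdown. Its log2 fold change was -0.09 with a standard error of 0.32, and turned to 0.37 without control replicate 1 and 0.09 without knockdown replicate 1. In GENCODE 29, 44.6% of the annotated exon bases of ASNS are shared with AC079781.5, a gene on the same strand. The same holds for 46.2% of SARS2, with AC011455.2, and for 22.0% of VARS2, with GTF2H4. SARS2 stood at 2.28 ± 1.03 CPM in controls and 2.56 ± 0.10 after knockdown. Reads in shared exons cannot be given to 1 gene, so the levels and differences of these 3 genes are uncertain.

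Per length, levels between members were compared by FPKM (reads scaled to gene length and library total) in the first table, over members with the same length in both tables. TARS1 had the highest mean control FPKM, 95.8, followed by SLC38A2 (78.6), NARS1 (68.3), SLC1A5 (59.4), IARS2 (56.3) and SLC7A5 (53.1). After knockdown the mean FPKM of SLC7A5 was 34.0, and that of TARS1 was 85.6. SLC7A11 had 3.82 in controls and 2.41 after knockdown. Each is a mean of 2 libraries on the authors' gene lengths.

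The 19 members under the count minimum had mean counts of at most 5.17, and the lowest kept member had 10.8. Of these, 18 were transporters, and the other was the gene ENSG00000269547, for which no symbol was found. SLC6A14, SLC7A3, SLC7A4, SLC7A13 and SLC7A14 had 0 reads in all 6 libraries, which allows at most 0.207 to 0.272 CPM per library.

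The 300 bases around the starts of members (250 before and 50 after, RefSeq, GRCh38.p14) were searched on both strands for TGATGNAA, the core of elements that ATF4 with C/EBP proteins is known to bind. At least 1 start was found for 62 of the 77 members, with 98 starts in all; VARS1, SLC7A11 and SLC6A15 were among those without an entry. The motif was in 15 of the 62 (24.2%), against 315 of 10984 tested genes (2.87%, 16247 starts). It was in 7 of 11 cytosolic synthetases (63.6%), 1 of 14 mitochondrial synthetases, 6 of 33 transporters and 1 of 3 enzymes. The windows below show 30 bases around the motif, on the strand of the gene. They cover the called members that held it and 6 of the members with it that did not pass. Not shown are SLC1A3, SLC1A4, CARS1, GARS1 and YARS2, with log2 fold changes of 0.05, 0.02, -0.03, -0.03 and -0.04. The motif is in capitals, in either direction.
NARS1 (chr18:57621804-57621833, minus strand): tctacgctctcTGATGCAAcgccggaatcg
TARS1 (chr5:33440956-33440985, plus strand): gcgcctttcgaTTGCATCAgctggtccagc
SLC1A5 (chr19:46784893-46784922, minus strand): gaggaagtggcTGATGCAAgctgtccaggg
SLC38A1 (chr12:46266502-46266531, minus strand): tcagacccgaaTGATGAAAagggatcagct
SLC3A2 (chr11:62881719-62881748, plus strand): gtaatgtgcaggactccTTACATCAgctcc
IARS1 (chr9:92293692-92293721, minus strand): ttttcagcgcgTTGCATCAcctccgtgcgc
AARS1 (chr16:70289675-70289704, minus strand): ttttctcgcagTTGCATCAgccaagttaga
MARS1 (chr12:57488053-57488082, plus strand): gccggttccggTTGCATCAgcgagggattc
SLC7A1 (chr13:29595663-29595692, minus strand): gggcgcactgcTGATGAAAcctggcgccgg
ASNS (chr7:97872458-97872487, minus strand): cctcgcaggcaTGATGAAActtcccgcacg

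In NARS1, TARS1 and SLC38A1 the motif lay at or just after the start, from base 14 to 21, 2 to 9 and -4 to 3 when the start base is 0. In SLC1A5 it lay from -97 to -90 and in ASNS from -68 to -61. Positions are from the RefSeq start of the window that held the motif, and a gene can have several starts. For SLC1A5 and SLC38A1 that window lies well inside the gene, whose deposited 5′ end is at 46788594 and 46270017. Which start these cells use was not tested. Of the 5 called members with a promoter entry 4 held the motif (80%), against 24.2% of members and 2.87% of tested genes. The part of the motif in these calls was not tested. Members with and without the motif had like medians of the log2 fold change: -0.09 over the 15 members with it and -0.09 over the 47 without it. AARS1, with the letters of NARS1 on the other strand, had 0.02, and SLC7A5, called, had no match in its window. A match is a description of letters and not of binding.

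**Figure D5:**
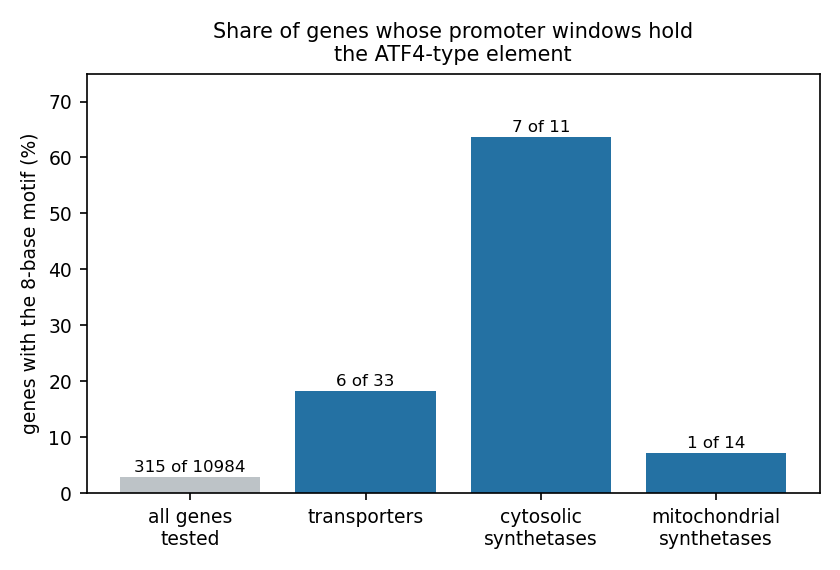
Percent of genes with at least 1 copy of the ATF4-type motif in the promoter windows, for all tested genes (2.87%) and for transporters (18.2%), cytosolic synthetases (63.6%) and mitochondrial synthetases (7.14%), with gene counts above the bars. Cytosolic synthetases stand above the other classes.

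Other genes of amino acid control were read from lists, against 2.47% of all genes called and 14.1% at an unadjusted p under 0.05. ATF4 itself, named after its values were seen, had 326 ± 11.9 CPM in controls and 308 ± 15.5 after knockdown (SD, n = 3; log2 fold change -0.08, edgeR adjusted p = 0.503). Of 23 tested genes on a list of ATF4 targets and stress genes, 1 fell and 0 rose: ALDH18A1, which opens proline synthesis, had 304, 330.1 and 258 CPM in the controls and 231, 248 and 203 CPM after knockdown, without overlap (log2 fold change -0.38, edgeR adjusted p = 8.73e-06). The median of that list was -0.04. An unadjusted p under 0.05 was found for 5 of the 23, all lower, where 8.04% of all genes were lower at that level. DESeq2 called 1 of the 23 and gave no adjusted p for 9. Of 13 genes for eIF2 kinases, eIF2 and eIF2B, 0 passed (2 at an unadjusted p under 0.05, both lower), and of 27 genes of amino acid sensing by mTORC1, 0 passed (4 at that level, 1 of them lower) with a median of 0.04. DESeq2 called 0 genes of these 2 lists and gave no adjusted p for 3 of the 27. At an unadjusted p under 0.05 both lists were near the share over all genes.

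Neighbouring enzymes gave 4 more calls, each lower, where 1.84% of all genes were called lower. SHMT1, the cytosolic partner of SHMT2, had -0.30 (adjusted p = 0.0122), 1 of 15 tested serine, glycine and one-carbon enzymes. ODC1, which opens polyamine synthesis, had -0.24 (0.00959), and GOT2, the mitochondrial aspartate aminotransferase, -0.21 (0.0258), 2 of 22 other enzymes of amino acid synthesis and breakdown. GCLM, the modifier subunit of the enzyme that uses cysteine for glutathione, had -0.36 (0.00930), 1 of 12 glutathione and NRF2 target genes. These 4 did not pass without control replicate 2 (adjusted p 0.0847 for SHMT1, 0.173 for ODC1, 0.273 for GOT2 and 0.177 for GCLM) or without knockdown replicate 1 (0.271, 0.207, 0.288 and 0.123). GOT2 also missed the threshold with the unnumbered control (0.0518) or knockdown library (0.0841) left out, and GCLM with knockdown replicate 2 left out (0.0619). Of 10 elongation factor genes and 23 tRNA processing genes 0 passed by edgeR, with 3 in each list at an unadjusted p under 0.05 and medians of -0.05 and -0.08. DESeq2 called 0 of both and gave no adjusted p for 7 of the 23. Of the 15 serine, glycine and one-carbon enzymes, 4 had an unadjusted p under 0.05, all lower. Of the 22 other enzymes 7 did, 6 of them lower, and of the 12 glutathione genes 4 did, all lower. Over all genes 14.1% were at that level, 8.04% lower. DESeq2 called 1, 2 and 1 in these 3 lists and gave no adjusted p for 2, 6 and 2.

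In the 3′ UTRs, the 8 bases ATGAATTA were counted, a sequence that came from an earlier search of these same data for letters found in lower genes. It occurred in the longest annotated 3′ UTR (GENCODE 29) of 5 of the 77 members (6.49%), against 6.17% of 13492 tested genes. Called members SLC7A11 and SLC6A15 held 1 copy each, and the other 6 held 0. The other holders were SLC38A2, SLC38A6 and WARS2, none of them called. The 30 bases around the copies of the called members are shown on the strand of the gene, with the 8 bases in capitals (hg38).
SLC7A11 (chr4:138165979-138166008, minus strand): tgactgtgtatATGAATTAtttcaagtact
SLC6A15 (chr12:84881558-84881587, minus strand): gtggaaactgcATGAATTAaaagaggggta

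The median log2 fold change over all tested genes was -0.04 with the 8 bases and 0.00 without them. Since the 8 bases were found in lower genes of these same data, this difference is no separate support. Copies in SLC7A11 and SLC6A15 are a description of letters only. The part of the 8 bases in the falls of SLC7A11 and SLC6A15 was not tested.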

How the data were processed

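The authors deposited, per the file headers, raw read counts per gene and FPKM values in 2 tables; HISAT2, HTSeq and hg38 are named in the submitters' processing notes, with no version or strand setting. The deposited FPKM equalled count over gene length and library total and were used only for levels. Tables were joined by Ensembl identifier (19922 shared genes); 8 kept members had another gene length in the second table. In the first table's process annotation, 5172 cells were emptied for this work, so further genes with the terms may be missing from the members.

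Genes with a mean count of at least 10 over the 6 libraries were fitted by quasi-likelihood in edgeR 4.0.16 (R 4.3.3), with terms for group and table, TMM factors and Benjamini-Hochberg adjustment over 13565 genes. Standard errors were derived from the F statistic. CPM is per library; within-table differences used log2 CPM with a prior count of 2. DESeq2 1.42.0, other filters, factors and left-out libraries were alternatives. The fit was tested on simulated data. No 2 libraries agreed within sampling noise (chi-square per gene from 3.52 to 26.0 over genes with at least 20 reads).

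The members, lists and model were chosen with earlier results of these data known. Genes named are the called members, those the rule adds by name, in each class the 4 largest differences and 2 highest levels, and called list genes; others serve as family context and were chosen after their values were seen. Some results that the naming rule covers are not reported here.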

Additional observations from a re-analysis of the deposited data

How the results depend on the processing

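The 335 calls over all genes became 0 with the group as the sole term, 168 in the first table alone, 204 with DESeq2 and 517 at an adjusted p of 0.1; with 1 library left out they ran from 90 (without knockdown replicate 1) to 435. The 8 member calls became 0 with the group alone and 3 in the first table alone (SLC7A11, SLC7A5 and SLC6A15). They ran from 2 to 10 with 1 library left out, at 2 each for control replicate 2 and knockdown replicate 1, 3 for the unnumbered knockdown library and 5 for the unnumbered control. Members called lower were 12 at an adjusted p of 0.1, and 0 were higher in each alternative. All 8 kept their sign in each of 111 alternative values, which reuse the libraries that gave the calls. RLE factors and the filterByExpr minimum left the same 8; no filter added MARS2 and SLC3A2. The enzyme median of -0.08 ran from -0.11 to -0.011 with 1 library left out. With 1 library left out ASNS ran from -0.39 to 0.37 and PHGDH from -0.0066 to 0.036. ASNS turned to 0.37 and PHGDH to -0.0066 without control replicate 1, and ASNS to 0.09 without knockdown replicate 1. The cause of these changes was not tested. Replicate numbers cover 2 pairs, and their deviations had a correlation of 0.018, so they were not taken as pairing; with a replicate block 366 genes and 9 members passed, SLC3A2 added (adjusted p = 0.0375). Low counts limit ASNS, SARS2 and VARS2, whose standard errors were 0.32, 0.30 and 0.42.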
